A study of Homo sapiens with 6 samples.

Results

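The 9 genes HMOX1, NQO1, GCLC, GCLM, TXNRD1, SRXN1, PGD, TKT and ME1 encode antioxidant enzymes and enzymes that supply NADPH, most of them known targets of the transcription factor NRF2. They were chosen by symbol, matched to the Ensembl identifiers of the deposited tables, and all 9 of the 20330 Ensembl genes listed per table were found. RNA sequencing had been done on U251 cells, an established human glioblastoma line, in 2 groups of 3 libraries: control cells, and cells stably overexpressing the long noncoding RNA XLOC013218. All cells were grown under the same stated culture conditions. Whether the overexpressing cells are 1 clone or a mixed population, which promoter drives the transgene and what the control cells carry are not given in the sources used here. Nothing in the labels says how the replicates were made apart, so the p-values measure the spread between these libraries, which may be technical.

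NRF2, encoded by NFE2L2, is held in the cytoplasm and marked for destruction by KEAP1. Oxidants or electrophiles modify KEAP1, after which NRF2 accumulates, pairs with a small MAF protein and binds antioxidant response elements near its target genes, where BACH1 competes for the same sites. The targets make glutathione, reduce thioredoxin and quinones, break down heme, and run the enzymes that regenerate NADPH, among them those of the pentose phosphate pathway. In gliomas, as in other tumours, this programme is studied for its part in tolerance to oxidants and drugs.

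The antioxidant response element has the core TGACNNNGC. Short promoter stretches with a match are shown because this is the sequence through which NRF2 acts on its targets, which most of the 9 genes are. RefSeq promoter windows of GRCh38.p14, which run from 250 bases before to 50 bases after the annotated start, were matched by symbol for 8 of the 9 genes, HMOX1 not among them. Both strands were searched. Of these 8 genes, 4 held a match in at least 1 window, as did 18 of 94 genes of the related lists (19.1%) and 16.1% of all 27305 genes with a window. Each sequence is on the gene's own strand, 5′ to 3′, with the match in capitals, and a match on the other strand reads GCNNNGTCA. The upstream TXNRD1 window and the windows shown for ME1 and KEAP1 each held a second match, which is not shown, and the window at the upstream start of KEAP1 held none.
GCLM, minus strand, chr1:93909445-93909475, first matched base 34 bases before the start: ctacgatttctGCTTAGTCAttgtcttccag
KEAP1, minus strand, chr19:10502783-10502813, 31 bases before the downstream start: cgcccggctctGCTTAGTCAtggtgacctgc
TXNRD1, plus strand, chr12:104215669-104215699, 99 bases before the upstream start: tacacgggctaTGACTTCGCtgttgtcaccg
TXNRD1, plus strand, chr12:104286919-104286949, 102 bases before the downstream start: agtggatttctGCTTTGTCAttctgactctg
PGD, plus strand, chr1:10398852-10398882, 201 bases before the start: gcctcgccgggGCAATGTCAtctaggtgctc
ME1, minus strand, chr6:83431169-83431199, 137 bases before the start: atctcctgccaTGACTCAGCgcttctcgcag
GCLM and KEAP1, the latter not one of the 9 and shown for this reason, carry the same 9 bases, TGACTAAGC on the strand opposite to the gene. The ME1 match also overlaps the shorter AP-1 motif TGACTCA. NQO1, GCLC, SRXN1 and TKT had no match within their windows, which leaves sequence farther away unsearched. A match is a description of letters and not a measured binding site, and no binding was measured in this study.

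The values are FPKM, sequenced fragments relative to the length of the transcript and to the mapped fragments of the library, so read totals are not given. Summed FPKM lay between 598683 and 621922 per library. Relative depth, estimated from the steps between low values, ran from 0.78 to 1.0 of that of control replicate 2, with the groups overlapping. Of 10 glial and glioma markers, 6 had a mean of at least 1 FPKM, with VIM, CD44, SOX2, NES, SOX9 and GFAP present, while S100B, AQP4, OLIG2 and CHI3L1 were below it in the mean. GFAP, a filament protein of astrocytes, was at 34.68, 45.98 and 44.13 FPKM in control and 30.05, 14.36 and 20.43 FPKM in overexpression libraries, a log2 fold change of -0.96 (limma adjusted p = 0.107). SOX2, a stem cell transcription factor, was at 116.85, 118.66 and 113.83 FPKM in control and 102.27, 104.78 and 98.10 FPKM in overexpression libraries, a log2 fold change of -0.19 (limma adjusted p = 0.12). Both were lower without overlap, as were 10.1% of tested genes, and neither passed the threshold. The other tested markers, VIM, CD44, NES and SOX9, overlapped between groups, with log2 fold changes of -0.10, -0.11, -0.04 and 0.01. The summed level of the 10 ran from 5069 to 5451 FPKM in control and from 4788 to 5010 FPKM in overexpression libraries. Most of that sum was VIM and CD44. The summed level of 7 immune markers ran from 7.96 to 9.26 FPKM in control libraries and from 11.5 to 13.2 FPKM in overexpression libraries. Most of this sum was CD68, with a log2 fold change of 0.44 (limma adjusted p = 0.0831). PTPRC ran from 0.13 to 0.17 FPKM in control and from 0.39 to 0.65 FPKM in overexpression libraries, while CD3E was at 0 throughout. The part of these marker differences in the results below was not tested. In a bulk sample, fewer cells expressing a gene and less RNA per cell cannot be told apart.

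The question addressed is whether raised XLOC013218 goes with other levels of these genes. None of the 9 genes passed the threshold, an adjusted p of 0.05 in limma over 11731 tested genes, of which 0.520% passed. Transketolase, encoded by TKT, came nearest, with a level 0.823 times that of control on the log2(FPKM + 1) scale. GCLM, TXNRD1 and SRXN1 were between 1.09 and 1.11 times their control levels. HMOX1, NQO1, GCLC and PGD were between 0.963 and 1.01 times theirs. ME1 was too low to be tested. The 8 tested genes had a median log2 fold change of 0.003 against -0.0008 for all tested genes, with 4 above and 4 below 0. At an unadjusted p under 0.05, 2 of the 8 passed in limma, GCLM higher and TKT lower, beside 12.7% of all tested genes.

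**Figure D1:**
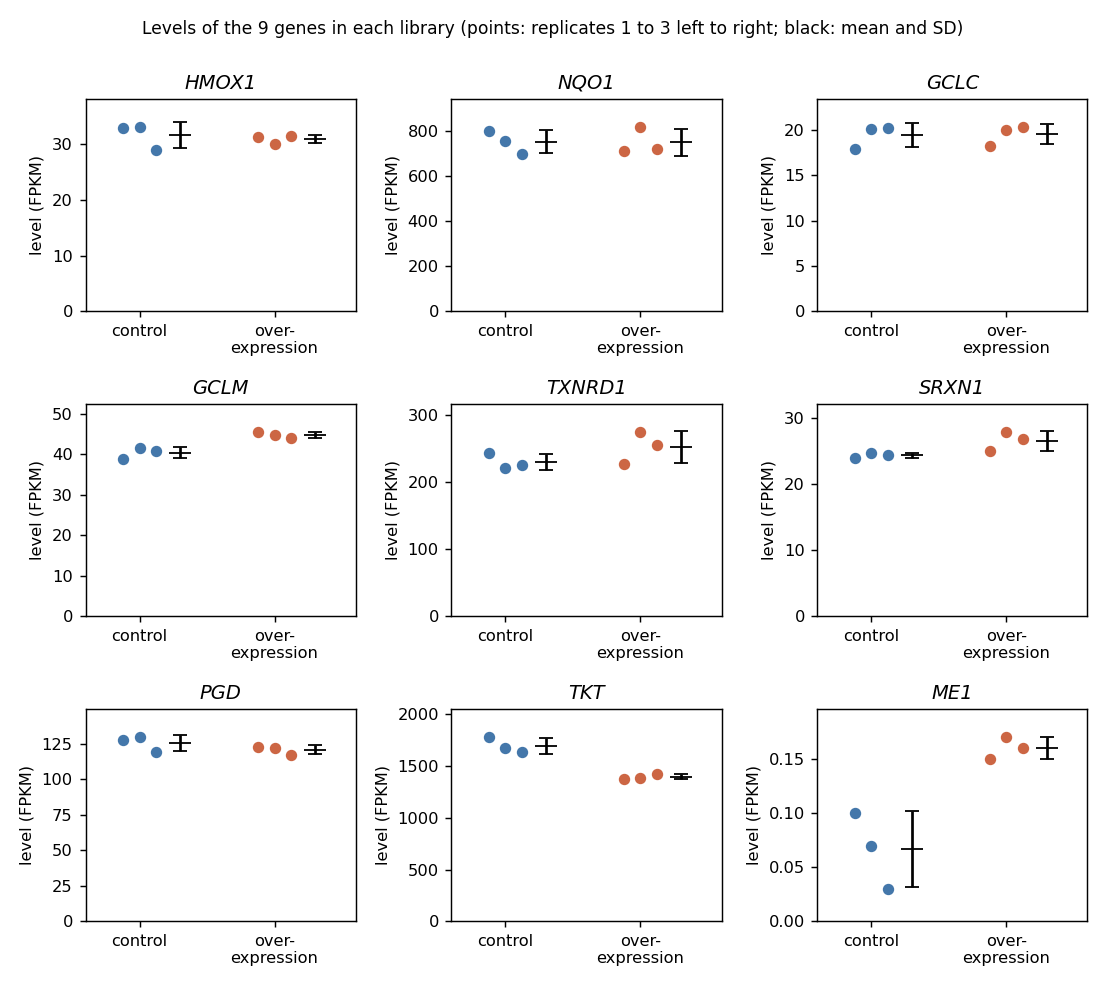
Level in FPKM (vertical axes, from 0, separate scale per gene) of the 9 genes in the 3 control (blue) and 3 overexpression (orange) libraries, with the group mean and SD in black. TKT is lower in all 3 overexpression libraries, GCLM and SRXN1 lie slightly above all control libraries, and ME1 stays under 0.2 FPKM.

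From the lowest to the highest, the genes differed far more in level than any of them differed between groups, though neighbours in the order lay much closer. Since FPKM is scaled per length, levels can be set side by side. TKT was the most abundant, followed by NQO1, TXNRD1, PGD, GCLM, HMOX1, SRXN1, GCLC and ME1. In this order every library of a gene lay above every library of the next gene, so no neighbouring pair overlapped. The control mean of TKT exceeded that of 99.7% of tested genes and that of NQO1 exceeded 99.0%, whereas GCLC stood near the middle, above 54.3%.

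Glutamate-cysteine ligase, which commits cysteine to glutathione, is made of the products of GCLC and GCLM. GCLC (ENSG00000001084, chromosome 6) encodes the catalytic subunit of this rate-limiting enzyme. Its level was 17.86, 20.09 and 20.18 FPKM in control replicates 1 to 3 and 18.24, 19.99 and 20.29 FPKM in overexpression replicates 1 to 3. These ranges overlapped almost completely, and the log2 fold change was 0.01 (SE 0.075, limma adjusted p = 0.970). GCLM (ENSG00000023909, chromosome 1) encodes the modifier subunit, which raises the activity of the catalytic one. It was at 38.78, 41.48 and 40.88 FPKM in control and at 45.43, 44.83 and 43.92 FPKM in overexpression libraries. All 3 overexpression values lay above all control values, as did those of 8.81% of tested genes. The means were 40.4 ± 1.42 and 44.7 ± 0.760 FPKM (SD, n = 3 per group). The log2 fold change of 0.14 (SE 0.05, 95% interval 0.03 to 0.26) did not pass the threshold, with a limma adjusted p of 0.290.

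The ratio of GCLM to GCLC within a library does not depend on how libraries were scaled. It was 2.17, 2.06 and 2.03 in control and 2.49, 2.24 and 2.16 in overexpression libraries. Overexpression replicate 3 fell just below control replicate 1, so the groups overlapped. The mean log2 difference was 0.14, and an exact two-sided permutation test gave p = 0.2, where 3 libraries against 3 cannot go below 0.1.

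The thioredoxin branch is represented by TXNRD1 and SRXN1. TXNRD1 (ENSG00000198431, chromosome 12) encodes the cytosolic selenoprotein that uses NADPH to reduce thioredoxin. Its level was 243.11, 220.39 and 226.02 FPKM in control and 227.48, 274.36 and 255.42 FPKM in overexpression libraries. Overexpression replicate 1 lay within the control range and the other two above it. The log2 fold change was 0.13 (SE 0.07, 95% interval -0.03 to 0.29, limma adjusted p = 0.490). It ranged from 0.07 to 0.20 when single libraries were left out, the highest value arising without overexpression replicate 1. SRXN1 (ENSG00000271303, chromosome 20) encodes sulfiredoxin, which repairs overoxidised peroxiredoxins. It was at 23.91, 24.67 and 24.34 FPKM in control and 24.94, 27.83 and 26.76 FPKM in overexpression libraries. The groups did not overlap, as for 8.81% of tested genes in that direction, though overexpression replicate 1 stood only just above the highest control. Its log2 fold change was 0.12 (SE 0.06, 95% interval -0.02 to 0.26, limma adjusted p = 0.473).

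NQO1 (ENSG00000181019, chromosome 16), the quinone reductase often read as an index of NRF2 activity, was at 801.49, 759.93 and 699.72 FPKM in control. In overexpression libraries it was at 711.83, 819.36 and 724.32 FPKM. The group means, 753.7 ± 51.2 and 751.8 ± 58.8 FPKM (SD, n = 3 per group), differed by far less than the spread within either group. The log2 fold change was -0.004 with a 95% interval from -0.16 to 0.15 (limma adjusted p = 0.987). HMOX1 (ENSG00000100292, chromosome 22), the inducible heme oxygenase that BACH1 represses, was at 33.01, 33.09 and 28.97 FPKM in control and at 31.31, 30.05 and 31.43 FPKM in overexpression libraries. The overexpression values all lay inside the control range. Its log2 fold change was -0.03 with a 95% interval from -0.18 to 0.12 (limma adjusted p = 0.886), and it lay between -0.093 and -0.0001 when single libraries were left out, the ends being without control replicates 3 and 2.

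**Figure D2:**
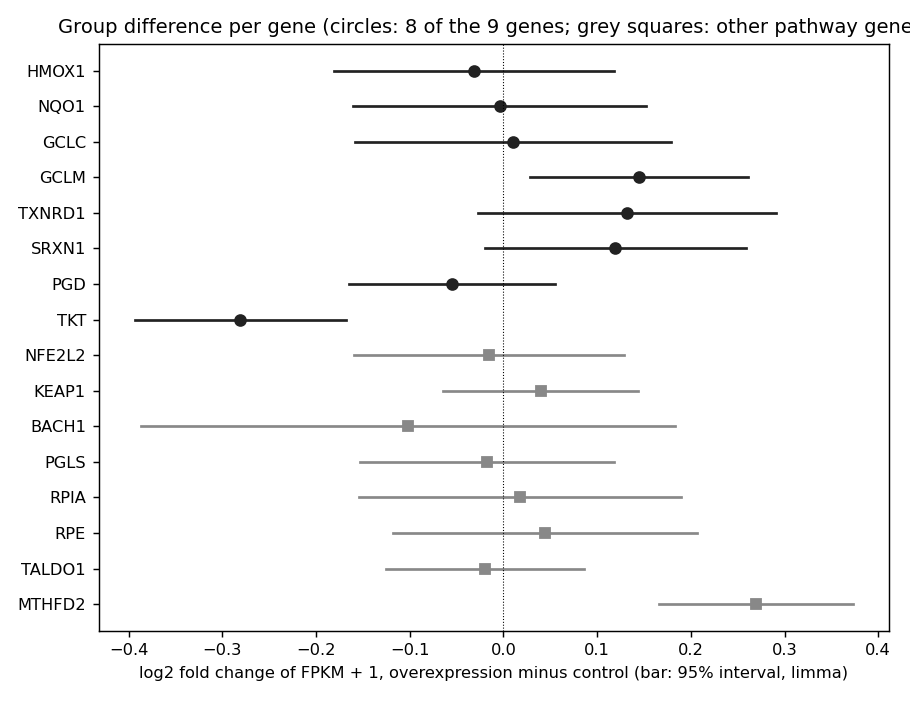
Log2 fold change of FPKM + 1, overexpression minus control (horizontal axis), with 95% intervals from limma, for the 8 tested genes of the set (circles) and NFE2L2, KEAP1, BACH1, TALDO1, PGLS, RPIA, RPE and MTHFD2 (grey squares). Among these plotted genes the intervals of TKT, GCLM and MTHFD2 do not reach 0, and of these MTHFD2 alone passed the adjusted threshold.

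The pentose phosphate and NADPH enzymes held the largest difference of the set. TKT (ENSG00000163931, chromosome 3) encodes transketolase, which moves two-carbon units between sugars in the non-oxidative branch and links the pathway to glycolysis. It was at 1776.96, 1674.17 and 1629.38 FPKM in control and at 1373.12, 1385.15 and 1420.36 FPKM in overexpression libraries. The highest overexpression value lay well below the lowest control value, as 10.1% of tested genes did in that direction. The means were 1694 ± 75.7 and 1393 ± 24.6 FPKM (SD, n = 3 per group), with a log2 fold change of -0.28 (SE 0.05, 95% interval -0.39 to -0.17). The limma adjusted p was 0.0515, just above the threshold, and TKT stood in place 67 of all tested genes by p.

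Small changes of the analysis put TKT on either side of the threshold while its size hardly moved. It passed under 4 of 13 alternatives, with limma adjusted p = 0.0486 at a pseudocount of 0.1, 0.036 after rescaling to TPM, 0.0114 after quantile normalization and 0.0225 with array quality weights. The shares of tested genes passing under these settings were 0.520%, 0.520%, 0.486% and 1.68%. Leaving out any 1 library gave log2 fold changes between -0.31 and -0.25 and limma adjusted p between 0.103 and 0.226.

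**Figure D3:**
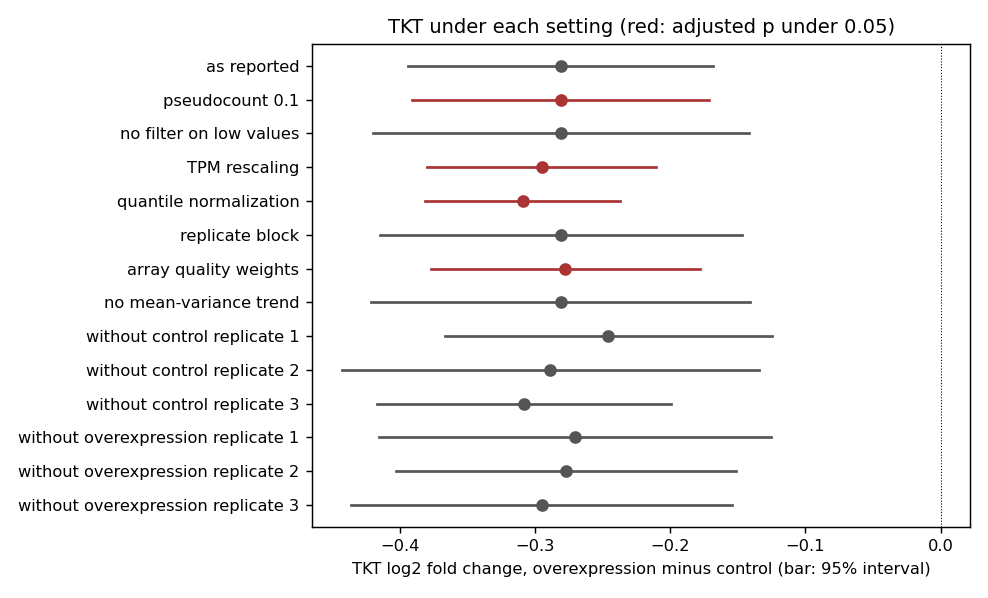
Log2 fold change of TKT, overexpression minus control (horizontal axis), with its 95% interval under the reported analysis and each of 13 alternatives. Every interval lies below 0, and the 4 settings in red pass an adjusted p of 0.05.

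PGD (ENSG00000142657, chromosome 1) encodes 6-phosphogluconate dehydrogenase, which forms NADPH in the oxidative branch. It was at 127.52, 129.81 and 119.64 FPKM in control and 123.08, 122.36 and 117.22 FPKM in overexpression libraries. The groups overlapped, and the log2 fold change was -0.05 (SE 0.05, 95% interval -0.17 to 0.06, limma adjusted p = 0.699). It lay between -0.09 without control replicate 3 and -0.03 without control replicate 2. ME1 (ENSG00000065833, chromosome 6), the cytosolic malic enzyme that also forms NADPH, was listed at 0.10, 0.07 and 0.03 FPKM in control and 0.15, 0.17 and 0.16 FPKM in overexpression libraries. The overexpression values were the higher ones, but all were far below the mean of 1 FPKM required for testing, so no fold change is given.

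TKT was also compared with other enzymes of its pathway within each library, pairs chosen after the values were seen and given without a test. TALDO1 encodes transaldolase, the other transferase of the non-oxidative branch. The ratio of TKT to TALDO1 was 11.9, 11.7 and 11.9 in control and 9.71, 9.98 and 10.0 in overexpression libraries. The ratio of TKT to PGD was 13.9, 12.9 and 13.6 in control and 11.2, 11.3 and 12.1 in overexpression libraries. In both ratios the groups stayed apart. Such ratios do not depend on scaling between libraries. Because TKT was already seen to be lower and the other enzymes little changed, they restate the TKT difference and add no support to it.

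The genes whose pattern over the 6 libraries lay nearest to that of TKT, the member with the widest range, were found by the root mean square difference of centred log2(FPKM + 1) values. They were TMEM54 and FAM210B (both 0.0179), DCLK1 (0.0191) and SYNC (0.0267). TMEM54 was at 80.06, 76.0 and 74.91 FPKM in control and 60.4, 62.0 and 64.03 FPKM in overexpression libraries. Its log2 fold change was -0.30 (limma adjusted p = 0.0384), while those of the other three were between -0.30 and -0.28 with limma adjusted p = 0.152, 0.0569 and 0.0782. With 6 libraries and 11731 genes, such nearness is a description of these values.

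The regulators of NRF2 showed no gene past the threshold. Of 15 on the list 14 were tested, 0 were called by limma and 0 had an unadjusted p under 0.05, beside 0.520% and 12.7% of all tested genes. The median log2 fold change was -0.01. NFE2L2, the gene of NRF2 itself, was at 25.87, 28.92 and 27.46 FPKM in control and at 26.02, 27.13 and 28.15 FPKM in overexpression libraries. KEAP1 was at 60.4 ± 1.11 and 62.1 ± 1.14 FPKM and the repressor BACH1 at 3.99 ± 0.234 and 3.68 ± 0.691 FPKM (SD, n = 3 per group), both with overlapping groups. The log2 fold change of BACH1, -0.10, turned to 0.0036 without overexpression replicate 2. The lowest p-values of the list belonged to BTRC, a ubiquitin ligase adaptor that can also target NRF2, GSK3B, the kinase that marks NRF2 for it, and MAFG, a small MAF partner. Their log2 fold changes were 0.15, -0.11 and 0.07 (limma adjusted p = 0.46, 0.555 and 0.622). Activity of NRF2 is set largely at the protein level, which these data do not measure.

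Other known NRF2 targets gave no call either. Of 26 listed, 22 were tested and 0 passed in limma, with a median log2 fold change of 0.02, 12 above and 10 below 0. At an unadjusted p under 0.05 there were 5, all lower in overexpressing cells: ABCC1, GSTM3, EPHX1, AKR1C3 and FECH, beside 6.90% of tested genes in that direction. ABCC1, which exports glutathione conjugates, was at 41.94, 42.93 and 40.32 FPKM in control and 32.94, 34.58 and 34.26 FPKM in overexpression libraries. Its groups lay clearly apart, beside 10.1% of tested genes that were lower without overlap. ABCC1 had a limma adjusted p of 0.0537 for a log2 fold change of -0.29 (SE 0.05). GSTM3, a glutathione transferase, was at 70.6 ± 3.05 and 58.1 ± 2.24 FPKM (SD, n = 3 per group), with a log2 fold change of -0.28 (limma adjusted p = 0.0656). ABCC1 passed after rescaling to TPM (limma adjusted p = 0.0455) and under array quality weighting (limma adjusted p = 0.0225). EPHX1, an epoxide hydrolase, had means of 322 ± 8.85 and 273 ± 33.2 FPKM (SD, n = 3 per group) without passing (limma adjusted p = 0.256). Its log2 fold change of -0.24 was -0.15 without overexpression replicate 2. AKR1C3, a ketone reductase named after its values were seen, was at 25.21, 31.80 and 30.14 FPKM in control and 28.06, 16.28 and 20.34 FPKM in overexpression libraries, with overlap. It has near-identical relatives on the same list, AKR1C1 and AKR1C2, so its share of reads is uncertain, as may be that of GSTM3 within its own family.

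Genes of heme, glutathione and thioredoxin handling held no call. The 6 tested heme and iron genes had a median log2 fold change of -0.09, the 14 glutathione enzymes -0.05 and the 15 thioredoxin and peroxiredoxin genes -0.05, with 0 calls in each by limma, beside 0.520% of all tested genes. Of these groups 5, 8 and 10 genes were below 0 and 1, 6 and 5 above. At an unadjusted p under 0.05 they held 0, 1 and 2 genes higher and 2, 0 and 1 lower, beside 5.81% and 6.90% of all tested genes. POR, the reductase that hands electrons to heme oxygenase, and BLVRA, a biliverdin reductase, both stood at a log2 fold change of -0.17 (limma adjusted p = 0.254 and 0.353). HMOX2, the constitutive heme oxygenase, was at 32.4 ± 0.941 and 34.96 ± 1.07 FPKM (SD, n = 3 per group). TXN, the thioredoxin that TXNRD1 reduces, was at 271.54, 259.94 and 261.14 FPKM in control and 280.96, 308.21 and 280.35 FPKM in overexpression libraries. All its overexpression values were the higher ones, as for 8.81% of tested genes. The log2 fold change of TXN was 0.13 (limma adjusted p = 0.320), or 0.087 without overexpression replicate 2. SESN2, a stress-induced protein tied to peroxiredoxins, had a log2 fold change of 0.28 and PRDX5 one of -0.10 (limma adjusted p = 0.298 and 0.393).

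CHAC1, an enzyme that degrades glutathione, had the largest difference of the tested glutathione enzymes. It was at 14.66, 16.89 and 15.99 FPKM in control and at 30.54, 18.43 and 18.43 FPKM in overexpression libraries. The groups did not overlap, as for 8.81% of tested genes in that direction, but overexpression replicate 1 stood far above the others. The log2 fold change of 0.44 (SE 0.17), at a limma adjusted p of 0.318, became 0.21 without that library (limma adjusted p = 0.314). GSR, which regenerates reduced glutathione with NADPH, was at 68.3 ± 5.30 and 62.2 ± 2.12 FPKM and GPX8 at 47.8 ± 0.844 and 52.5 ± 4.38 FPKM (SD, n = 3 per group), neither past the threshold.

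Like TKT and PGD, the other pentose phosphate enzymes were not called. Of 12 listed, 10 were tested, 0 were called by limma and 1 had an unadjusted p under 0.05, beside 0.520% and 12.7% of all tested genes. Their median log2 fold change was 0.0, with 5 above and 5 below it. PRPS2, which turns ribose 5-phosphate into the precursor of nucleotides, was the gene with the low unadjusted p. It was at 29.00, 29.46 and 23.98 FPKM in control and 36.28, 33.18 and 33.72 FPKM in overexpression libraries, and its log2 fold change was 0.32 (SE 0.08, limma adjusted p = 0.156). PRPS1, its close relative, had a log2 fold change of 0.09 and H6PD, the enzyme of the endoplasmic reticulum, one of -0.18 (limma adjusted p = 0.506 and 0.534). Without overexpression replicate 2 these were 0.06 and -0.10. TKTL1 and TKTL2, the relatives of TKT, were below the mean of 1 FPKM and were not tested.

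MTHFD2, a mitochondrial enzyme of folate metabolism, was the single gene called in the related lists. It rose from 71.12, 73.18 and 74.51 FPKM in control to 88.30, 86.08 and 90.07 FPKM in overexpression libraries. The groups were well apart, beside 8.81% of tested genes that were higher without overlap. The log2 fold change of MTHFD2 was 0.27 (SE 0.05) at a limma adjusted p of 0.0442. The call was lost without any 1 of the 6 libraries (limma adjusted p between 0.0739 and 0.19), and after rescaling to TPM, where the limma adjusted p was 0.0713. It was also lost with the replicate number as a block (limma adjusted p = 0.0992), with no filter (limma adjusted p = 0.125) and without the trend (limma adjusted p = 0.16). MTHFD2 was placed on a list named for NADPH-forming enzymes. Whether each enzyme on it forms NADPH in these cells was not measured, so the call says nothing about NADPH supply. Of this list 10 were tested and 1 was called, beside 0.520% of all tested genes, and the median log2 fold change was 0.004. NNT and MTHFD1L, also on it, had differences of -0.09 and 0.10 on that scale (limma adjusted p = 0.534 and 0.541). Of the superoxide and peroxide enzymes, SOD1 and CAT were the 2 tested, with differences of 0.06 and -0.15 on the same scale (limma adjusted p = 0.618 and 0.548). The first was 0.03 without control replicate 3 and the second -0.08 without control replicate 1. SOD2 had no entry matched by symbol in all 6 libraries, so its level is not known here.

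**Figure D4:**
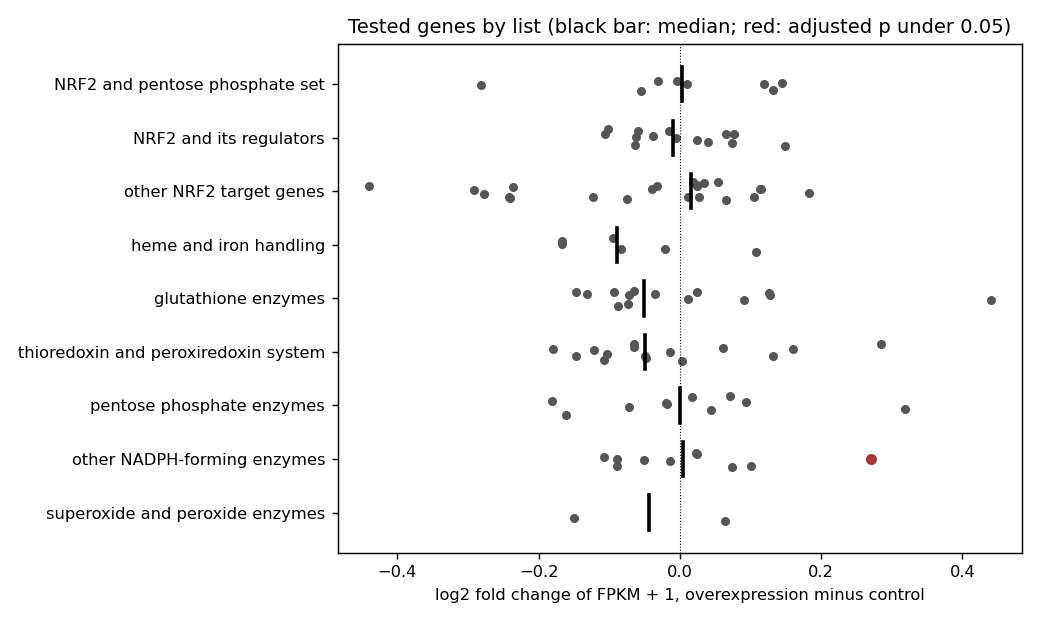
Log2 fold change of FPKM + 1, overexpression minus control (horizontal axis), of each tested gene by list, with list medians as black bars. All list medians lie between -0.09 and 0.02, and MTHFD2, in red, is the 1 gene past an adjusted p of 0.05.

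Over all 8 related lists together, 93 of 117 genes were tested. By limma 1 was called higher, 0 were called lower and 92 were not called, beside 0.520% of all tested genes called in either direction. The median log2 fold change of the 93 was -0.02, with 41 above and 52 below 0. At an unadjusted p under 0.05 there were 5 higher and 8 lower, beside 5.81% and 6.90% of all tested genes. Of the 93, 10 had all overexpression values above and 9 all below the control values, beside 8.81% and 10.1% of all tested genes.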

How the data were processed

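The authors deposited FPKM values, 1 table per library, rounded to 2 decimals. Per the submitters' processing notes the tools were RSEM 1.3.1, Cufflinks 2.2.1, Bowtie, TopHat and edgeR with the build hg18, with no roles given. Per the labels' protocols libraries were stranded and poly(A)-selected, whereas the series' design text speaks of cytoplasmic RNA without such selection, and this was not settled here. The last line of 5 tables is incomplete and was not read. Symbols matched 19447 of 20330 identifiers. Of the listed genes, SOD2, TXNIP and NMRAL2P had no matched entry and were not tested for that reason, whatever their level. Chromosomes come from RefSeq (GRCh38.p14).

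Genes and loci that all 6 tables hold were compared where their mean reached 1 FPKM, on log2(FPKM + 1) with limma 3.58.1 in R 4.3.3 (limma-trend, group only, two-sided, Benjamini-Hochberg over all tested genes, threshold 0.05), which was tested on simulated data. Such fold changes understate those of low genes. Reads per gene are unknown, so no counting interval is given. Ratios and summaries used Python 3.11.15, pandas 2.3.3, numpy 2.4.6 and scipy 1.17.1. The genes, lists, naming rule (all 9, plus the 3 lowest p per list, NFE2L2, KEAP1 and BACH1, and the 4 genes nearest in pattern) and alternatives were chosen with earlier results of these data known. Lists of epithelial and neuron markers held 1 and 3 tested genes, 0 called. A few listed genes are left out of the text.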

Additional observations from a re-analysis of the deposited data

How the results depend on the processing

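Counts of calls depended on the settings, and the cause was not tested. Over all tested genes 61 were called by limma (37 higher, 24 lower), against 22 with no filter on low values, 197 with array quality weights, 19 with replicate number added as a block, 1 without a mean-variance trend and between 1 and 63 with single libraries left out. After rescaling to TPM they were 30 higher and 31 lower, 50 of them shared. Of the 9 genes 0 were called by limma (2 at an unadjusted p under 0.05), and 1, TKT, with a pseudocount of 0.1, TPM rescaling, quantile normalization or array quality weights. Of the related genes 1 was called by limma, against 2 after TPM rescaling (ABCC1 and GSTM3), 3 under array quality weighting, and 0 without a filter, with the block, without a trend and without any 1 library (0 to 0). Directions turned for 4 genes. NQO1 went from -0.004 to 0.041, 0.003, 0.034 and 0.021 without control replicate 1 or 2 or overexpression replicate 1 or 3, in a range from -0.068 to 0.041. GCLC went from 0.01 to -0.0038 after TPM rescaling and to -0.045, -0.008 and -0.018 without control replicate 1 or overexpression replicate 2 or 3, in a range from -0.045 to 0.055. NFE2L2 went from -0.0155 to 0.022 and 0.012 without control replicate 2 or overexpression replicate 1 (range -0.055 to 0.022), and BACH1 from -0.10 to 0.0036 without overexpression replicate 2 (range -0.21 to 0.0036). Of the values of 34 named genes under the alternatives, 413 kept direction and side of the threshold, 8 passed newly, 10, all of MTHFD2, no longer passed and 11 turned. The deviations of same-numbered libraries had correlations of -0.04, -0.058 and 0.045, so no pairing by number was seen in these values. This cannot tell whether same-numbered libraries were made together. With the block TKT had a limma adjusted p of 0.122, and the GCLM to GCLC ratio an exact p of 0.25. That ratio's log2 difference lay between 0.08 and 0.18 without single libraries.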

Other observations

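Some redox genes below the mean of 1 FPKM required for testing are given as values, without a test and chosen after the values were seen. GPX3, the secreted glutathione peroxidase, was listed at 0.98, 0.86 and 0.56 FPKM in control and at 0.29, 0.24 and 0.16 FPKM in overexpression libraries. Its overexpression values all lay below the control values, as did those of 10.1% of tested genes. That share was not computed for genes as low as GPX3. BACH2, a relative of BACH1, was at 0.33, 0.32 and 0.34 FPKM in control and at 1.10, 0.13 and 0.16 FPKM in overexpression libraries. Overexpression replicate 1 thus stood above the other 5 libraries, as it did for CHAC1. AKR1B10, an NRF2-responsive reductase, was at 0.82, 0.52 and 0.63 FPKM in control and 0.77, 1.71 and 1.01 FPKM in overexpression libraries, with overlap.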
